A study of Homo sapiens with 6 samples.

Results

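The untreated culture of the series was described from its 3 control samples, named Control-1 to Control-3, and from the 14247 of 40205 listed gene symbols (35.4%) that had 10 or more counts in each of them. RNA-seq counts, the number of reads assigned to a gene, were given for 3 untreated samples and for 3 samples exposed to cationic liposomes, and only the untreated samples were used here. The labels name the cells as HepG2, a human liver cancer cell line, grown in DMEM with fetal bovine serum and antibiotics and seeded in multi-well plates, with the agent given as control and no vehicle stated. The line is a tumour line kept in culture and carries no engineered allele by the labels. The paper calls the samples independent, but neither it nor the labels say whether the 3 were separate cultures, so the spread between them may be partly technical. Levels are given as CPM, counts relative to the library total and scaled by the TMM method, a correction for composition, as mean ± SD over the 3 samples.

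Liver cells of the parenchyma make most plasma proteins, among them albumin, the apolipoproteins of lipoprotein particles and the chains of fibrinogen, and they run the urea cycle and the breakdown of amino acids. HepG2 cells are known for keeping the secretion of albumin, alpha-fetoprotein, transferrin and apolipoproteins, which is why they serve as a liver model. A set of transcription factors, among them HNF4, FOXA and CEBP proteins, is known to drive these genes together.

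The libraries held 11784181 counts for Control-1, 11714498 for Control-2 and 11620295 for Control-3, and the member genes took at least 99.7% of them. Each library had counts on 20614 to 20950 genes. At this depth 10 counts were worth 0.850 to 0.857 CPM and 3 counts, taken as the floor of detection, 0.255 to 0.257 CPM. Floors cover counting error only. Control-3 stood apart in several measures. Mitochondrially encoded genes took 6.78% of its counts, against 4.11% and 4.76% in Control-1 and Control-2, and its 10 leading genes took 7.93%, against 5.77% and 6.25%. Results that rest on Control-3 are given with the values of the other samples.

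The genes that define hepatocytes were largely missing. Of 42 plasma protein genes, 2 were members, beside 59.5% of all nuclear protein coding symbols. Of the 42, 32 had at most 3 counts in each sample and 21 had no count in any. ALB (albumin) had 0 counts in all 3 samples, as did APOB, the scaffold of very low density lipoprotein, TTR (transthyretin), and FGA, FGB and FGG, the fibrinogen chains. AFP (alpha-fetoprotein) had 1, 1 and 0 counts. APOA1, the main protein of high density lipoprotein, had 0, 1 and 2 counts, and TF (transferrin) had 0, 2 and 0. SERPINA1 (alpha-1 antitrypsin) had 2, 7 and 4 counts. The 2 members were C3, the central complement component, with 115, 113 and 258 counts (13.8 ± 7.02 CPM), and VTN (vitronectin) with 16, 17 and 10 counts. The whole list summed to 13.03, 16.2 and 27.9 CPM over the samples, most of it from C3. The counts therefore go against the cell line label by these markers, and the cells are referred to as the control culture. What the cells are was not tested.

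The regulators of the hepatocyte programme were divided. FOXA2 had 0, 0 and 1, and HNF4A, a nuclear receptor that maintains liver gene expression, had 1, 2 and 6. FOXA3, the bile acid receptor NR1H4, the drug sensing receptors NR1I2 and NR1I3, ONECUT1 and PROX1 had no count in any library. Of 21 factors listed, 9 were members, beside 59.5% of all nuclear protein coding symbols. TBX3, a T-box repressor, had 488, 614 and 601 counts (48.5 ± 5.80 CPM), CEBPB had 403, 410 and 351 (33.2 ± 2.89 CPM), and PPARA, a fatty acid sensing receptor, had 149, 219 and 269 (18.1 ± 5.07 CPM). The other members included ONECUT2, HHEX, FOXA1, GATA6 and CEBPA, at 2.36 to 15.1 CPM. Most of these 9 factors are also known from tissues other than liver.

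Among 45 genes of liver metabolism and transport, 9 were members and 31 were at or under 3 counts in each sample. CPS1, which makes carbamoyl phosphate in the first step of the urea cycle, had 10005, 14881 and 18016 counts (1221 ± 340 CPM). ASS1 and ASL, the enzymes of the cycle that build and split argininosuccinate, were also present, with 1453, 1617 and 1801 counts (139 ± 14.2 CPM) for ASS1 and 291, 332 and 356 (27.9 ± 2.69 CPM) for ASL. OTC, which joins carbamoyl phosphate to ornithine, and ARG1, which releases urea, had 0 counts throughout. CPS1 alone made up 53.3% of the counts of the 3 hepatocyte lists together in Control-1, 61.1% in Control-2 and 65.8% in Control-3. ABCC2, an export pump for conjugates, had 2560, 2744 and 1627 counts (197 ± 51.9 CPM), lowest in Control-3. PYGL, the liver form of glycogen phosphorylase, had 2014, 1831 and 2119 (170 ± 12.0 CPM). HPD, an enzyme of tyrosine breakdown, had 350, 527 and 693 (44.7 ± 14.4 CPM), TFR2 had 194, 198 and 245 (18.1 ± 2.33 CPM), and PCK1, which starts gluconeogenesis, had 104, 178 and 271 (15.7 ± 7.07 CPM). CYP3A4, CYP1A2, TAT, FBP1 and the bile salt pump ABCB11 had no count. Over the 3 hepatocyte lists, 20 of 108 genes were members and 51 had no count in any control sample. Of all 40205 symbols 14247 were members, and of the 19061 nuclear protein coding symbols 11349 (59.5%).

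**Figure D1:**
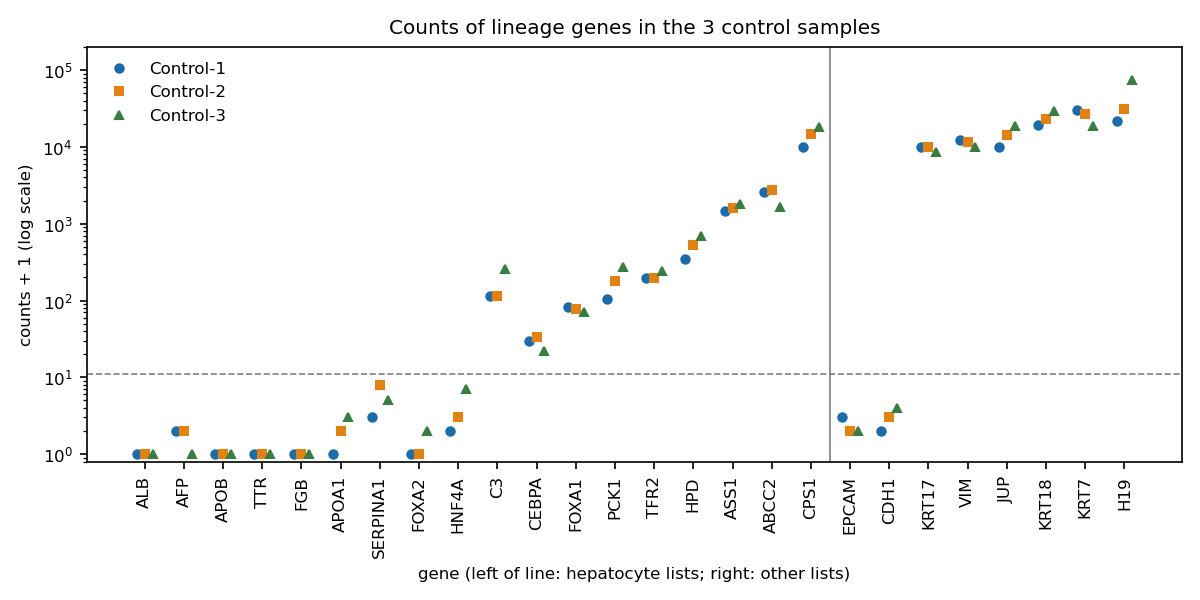
Counts plus 1 on a log scale of 26 lineage genes in Control-1 (circles), Control-2 (squares) and Control-3 (triangles), with hepatocyte genes left of the vertical line and the count minimum of 10 as a dashed line. ALB, APOB, TTR and FGB lie at 0 counts in all 3 samples, while CPS1 lies at 10005 counts or more and KRT17, the lowest of the keratins shown on the right, at 8608 or more.

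The fetal liver and hepatoma list was carried by 2 of its 7 genes. H19, an imprinted long noncoding RNA of fetal tissues, had 21579, 31299 and 74665 counts (3624 ± 2392 CPM), and without Control-3, its highest sample, the mean was 2264 CPM. PEG10, an imprinted gene derived from a retrotransposon, had 2972, 3317 and 3503 counts (279 ± 21.9 CPM). IGF2, the growth factor imprinted beside H19, had 0, 1 and 9 counts, and GPC3 (glypican 3), a surface protein of hepatoma cells, had 0, 6 and 3. DLK1 had 0 counts and LIN28B had 2, 1 and 4.

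The epithelial genes were present in part. Of 24 listed, 13 were members, beside 59.5% of all nuclear protein coding symbols, and 6 had at most 3 counts in each sample. The simple epithelial keratins KRT18 and KRT8, which pair in filaments, had 19106, 22985 and 29346 counts (2033 ± 432 CPM) and 17452, 22249 and 26398 counts (1881 ± 374 CPM). JUP (plakoglobin) had 9878, 14093 and 18742 counts (1215 ± 373 CPM) and DSP (desmoplakin) had 2585, 3126 and 3981 (276 ± 58.8 CPM), both proteins of desmosomes. These 4 genes were lowest in Control-1 and highest in Control-3, as were 12 and 11 of the 13 members, beside 36.8% and 40.0% of all members. ELF3 and ESRP2, an epithelial transcription factor and splicing factor, lay at 84.6 ± 25.03 and 78.5 ± 1.95 CPM. CDH1 (E-cadherin) had 1, 2 and 3 counts, EPCAM 2, 1 and 1, and GRHL2 and RAB25 none. KRT7, the keratin of ducts and glands, had 29882, 26464 and 18594 counts (2135 ± 503 CPM), while its duct partner KRT19 had 3, 9 and 19. Per kilobase of exon, the keratins stood at 1217 CPM for KRT7, 1012 for KRT18, 495 for KRT17 and 411 for KRT8. The lengths were those of all annotated exons of a gene together, not of its main transcript, so this order depends on that choice. KRT7 was above KRT18 per kilobase in Control-1 and Control-2 and below it in Control-3. Of 20 squamous genes, 4 were members. KRT17 had 10119, 9943 and 8608 counts (817 ± 74.1 CPM) and SFN had 1346, 1603 and 1923 (139 ± 24.1 CPM), but TP63, KRT5 and KRT6A, which define the squamous layer, were at or under 3 counts.

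Mesenchymal genes were present beside the keratins, with 16 of 24 as members, near the 59.5% of all nuclear protein coding symbols. The count alone does not mark a lineage. VIM (vimentin) had 12314, 11746 and 10014 counts (971 ± 107 CPM), S100A4 had 9669, 10600 and 10632 (880 ± 44.1 CPM) and COL3A1, a fibrillar collagen, had 7456, 10929 and 11358 (846 ± 180 CPM). COL5A1 followed at 266 ± 39.9 CPM, and N-cadherin, CDH2, at 90.2 ± 24.0 CPM with 1306, 1101 and 759 counts. TAGLN, an actin binding protein of smooth muscle, had 3542, 2518 and 378 counts. Of the list, 7 genes were at or under 3 counts in each sample and 1 lay between that floor and membership. The genes that were not members included DCN, LUM, PDGFRA, PRRX1, THY1, FAP and COL1A2, and LUM, PDGFRA and PRRX1 had no count. Other genes of fibroblasts and their matrix on the list, among them COL3A1 and COL5A1, were members, so the list was divided. What this says of the cells was not tested. In bulk RNA, fewer cells of a type and less RNA per cell cannot be told apart.

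Other lineages were mostly near the floor, with a few members in some lists. For the counts of members given here, 59.5% of all nuclear protein coding symbols were members. No gene was a member among 9 erythroid, 7 pancreatic and 10 intestinal markers. LGR5, a receptor of intestinal stem cells, came closest, with 32, 29 and 7 counts. Of 14 leukocyte genes CD68, a lysosomal protein, was the member, with 198, 149 and 173 counts (14.8 ± 2.11 CPM), and PTPRC, which all leukocytes carry, had 0, 1 and 0 counts. Of 11 endothelial genes ERG (36, 43 and 51 counts) and ESAM were members, and KDR, TIE1 and FLT1 had no count. CDH5 (VE-cadherin) had 1, 1 and 36 counts. Of 6 lung genes NKX2-1, a factor of lung and thyroid, had 127, 131 and 146 counts (11.5 ± 0.801 CPM), while the surfactant genes SFTPA1 and SFTPB had none. MITF, the melanocyte factor that other cells also use, had 976, 782 and 708 counts (70.3 ± 12.1 CPM). PMEL, the other melanocyte member, lay at 1.82 ± 0.784 CPM, and TYR, MLANA, DCT and SOX10 had no count. POU5F1, of 6 pluripotency genes, had 27, 36 and 35 counts, NANOG had none, and copies of POU5F1 elsewhere in the genome could share its reads. ACTC1, the cardiac actin and the member among 8 muscle genes, had 778, 657 and 100 counts. The 4 neural members were ENO2, TUBB3, NES and MAP2, at 7.55 to 34.3 CPM. Of 10 kidney genes PAX8 was the member, with 18, 32 and 27 counts. Of 10 genes of hormone-responsive organs 2 were members, among them GATA3 at 1.34 CPM. CYP11A1, of 7 steroidogenic genes, had 11, 29 and 16 counts. PPARG, of 5 adipocyte genes, had 85, 43 and 164 (8.30 ± 5.20 CPM, and 5.48 CPM without Control-3).

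The HOX genes, which hold positional identity along the body axis, were members for 25 of 39, beside 59.5% of all nuclear protein coding symbols. HOXC10 was steady at 897, 861 and 884 counts (75.2 ± 1.61 CPM), followed by HOXC13 with 563, 480 and 511 (44.2 ± 3.67 CPM) and HOXB6 with 294, 351 and 511 (32.9 ± 9.44 CPM). By cluster, 4 of 11 HOXA, 9 of 10 HOXB, 8 of 9 HOXC and 4 of 9 HOXD genes were members. The posterior paralogue groups 9 to 13 summed to 236 ± 9.20 CPM, against 77.5 ± 8.59 CPM for groups 6 to 8 and 41.8 ± 3.45 CPM for groups 1 to 5. Of 18 cancer-testis antigens, genes active in the germ line and in tumours, 6 were members. MAGEB2 had 2343, 2071 and 1848 counts (178 ± 21.9 CPM), PAGE1 1595, 1490 and 1180 (122 ± 18.95 CPM) and MAGEA6 1506, 1452 and 1165 (117 ± 16.2 CPM). MAGEC1, MAGEC2 and SSX1 had no count. The MAGEA genes are close copies of each other, so the share of each is uncertain.

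Most counts came from a modest number of strongly expressed genes. The median member lay at 23.6 CPM and the highest at 9616 CPM. The 81 members at 1000 CPM or more (0.569% of members) took 18.8 ± 0.842% of the counts, the 2097 members from 100 to 1000 CPM took 49.4 ± 1.41%, and the 7643 members from 10 to 100 CPM took 29.7 ± 0.466%. Between 874 and 906 genes made up 50% of a library. Nuclear protein coding genes took 87.7 ± 1.35% of the counts (11349 of 19061 such symbols were members), pseudogenes 4.90 ± 0.349% (1743 members) and long noncoding RNAs 1.22 ± 0.316% (372 members). At the edge of the rule, 175 genes had a lowest count of exactly 10, among them DHRS2 with 34, 60 and 10 counts, RPS26P7 with 76, 10 and 12 and MIR675, the microRNA host segment of H19, with 10, 28 and 52. Just outside, 192 genes had a lowest count of 9, among them NPR3 with 66, 61 and 9, OAS2 with 9, 12 and 104 and SPTLC3 with 9, 27 and 72.

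The mitochondrially encoded COX2 (a cytochrome oxidase subunit, not the prostaglandin enzyme) and the glycolytic enzyme GAPDH took the most reads. COX2 had 96895, 106412 and 134555 counts (9616 ± 1625 CPM) and GAPDH had 115916, 118425 and 97821 (9461 ± 999 CPM). GAPDH was ahead in Control-1 and Control-2 and COX2 in Control-3, and without Control-3 the means were 8706 CPM for COX2 and 10035 CPM for GAPDH. RNR2, taken as the large mitochondrial ribosomal RNA, stood at 9294 ± 2981 CPM. The mitochondrial COX1 stood at 7985 ± 1813 CPM and ND4 at 7294 ± 3359 CPM. ACTG1 and ACTB, the cytoplasmic actins, lay at 4474 ± 389 and 4429 ± 70.1 CPM. ACTB, with 51831, 52481 and 51218 counts, varied least of these. EEF2 (translation), ENO1 (glycolysis), HSP90AB1 (chaperone), FLNA (actin crosslinking), TUBB (tubulin), FTL (iron storage), PKM, HSPA8, TKT, GNB2L1, RPL8, FTH1, TUBA1B, GNAS, ALDOA and SQSTM1 were also among the 30 genes with the most reads. SQSTM1, a receptor of selective autophagy, had 28000, 28114 and 11960 counts, low in Control-3.

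Per kilobase, the first 6 genes were of the mitochondrially encoded list, led by COX2 at 14058 CPM per kilobase, ND4L at 6489, RNR2 at 5962 and ND4 at 5293. The leading nuclear genes were GAPDH at 4254 ± 449 and FTL, the ferritin light chain, at 3321 ± 838 CPM per kilobase, with GAPDH above FTL in each of the 3 samples (4468 against 3549, 4556 against 4023 and 3738 against 2393). TMSB10, an actin monomer binding peptide, stood at 2570 ± 445 and ACTB at 2224 ± 35.2 CPM per kilobase. Counts on processed copies cannot be told apart from those on the parent gene: RPS18P5 had 16736, 14424 and 13307 counts against 8590, 7895 and 7258 on RPS18, EEF1A1P5 had 19918, 18277 and 20848 against 16191, 15255 and 14515 on EEF1A1, and RPL13AP5 and TMSB4XP8 were likewise among the leading 20. How the authors treated reads that match several places was not given in the sources used here. The symbols RNR1 and RNR2 are each used for a mitochondrial and for a nuclear ribosomal RNA locus, so their source is uncertain. Both were counted in the mitochondrially encoded list.

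ALPP, the placental alkaline phosphatase, had 37031, 49463 and 67987 counts (4395 ± 1309 CPM), and stood in none of the gene lists. It was lowest in Control-1 and highest in Control-3. The related genes ALPI (intestinal form) with 3085, 6087 and 10452 counts and ALPPL2 (germ cell form) with 2543, 4142 and 4157 lay in the same order or close to it, whereas ALPL, the liver, bone and kidney form, had 1, 1 and 0 counts. ALPP, ALPI and ALPPL2 are near-identical copies, so reads may have been split among them. The family was looked at after the level of ALPP was seen.

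The biosynthetic and energy lists were present almost whole. All 79 cytosolic ribosomal protein genes were members and took 4.60%, 4.12% and 4.04% of the counts, in the order of the sample numbers. Counts on pseudogene copies such as RPS18P5 are not in these shares. The shares may therefore be too low, and the order of the ribosomal genes depends on how reads were assigned. RPL8 led with 30067, 28121 and 26210 counts (2404 ± 175 CPM), before RPL19 at 1668 ± 209 CPM and RPS6 at 1412 ± 87.4 CPM. The 26 translation factors took 1.53%, 1.497% and 1.44%, with EEF2 at 46739, 50792 and 50094 counts. The 19 glycolytic genes took 2.70%, 2.67% and 2.31%. After GAPDH these were led by ENO1 at 4054 ± 183 CPM and PKM, a pyruvate kinase, at 2828 ± 255 CPM. The citric acid cycle genes took 0.372%, 0.382% and 0.347% and the nuclear respiratory chain genes 0.838%, 0.792% and 0.749%, with SDHA at 761 ± 51.1 CPM and ATP5B at 1705 ± 196 CPM. TKT, a transketolase of the pentose phosphate pathway, stood at 2496 ± 225 CPM. All 15 mitochondrially encoded genes were members.

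**Figure D2:**
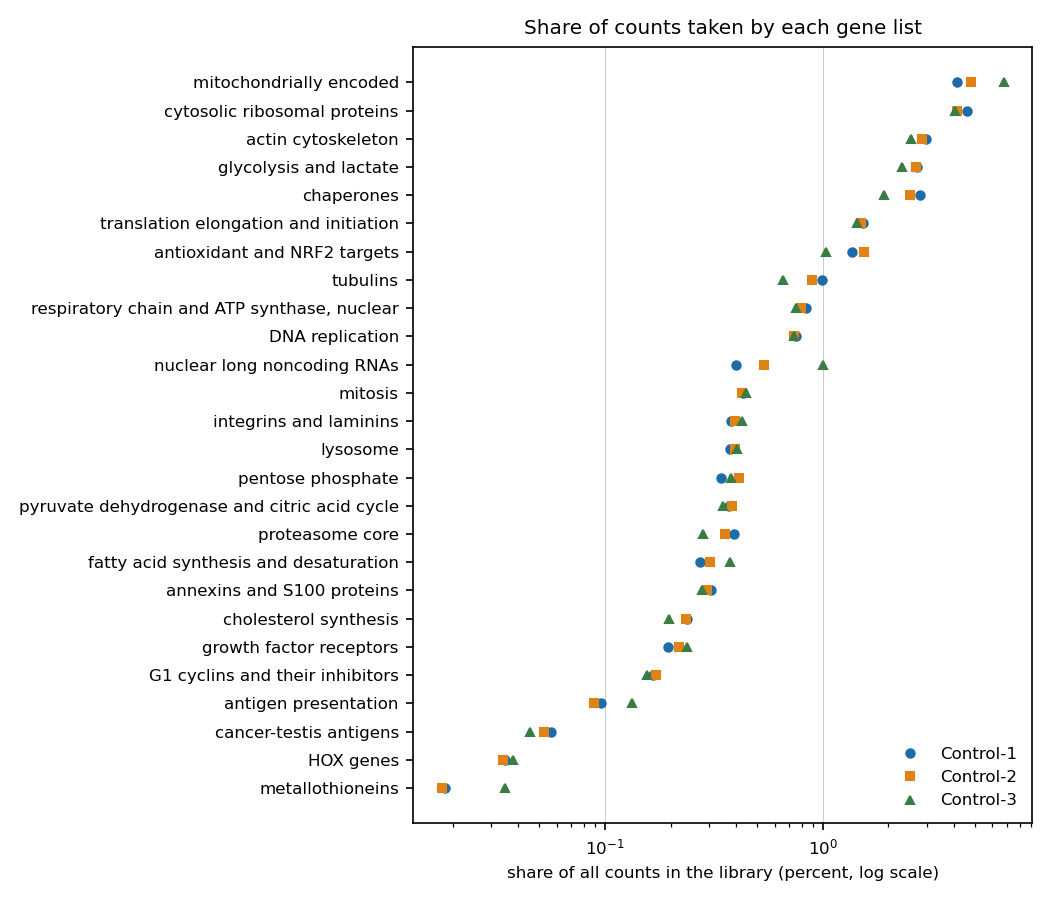
Share of all counts in the library taken by each of 26 pathway gene lists, in percent on a log axis, 1 point per control sample. Mitochondrially encoded genes take 4.11% to 6.78% and cytosolic ribosomal proteins 4.04% to 4.60%, while HOX genes and metallothioneins lie under 0.04%. Counts on pseudogene copies of the listed genes are not included.

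The DNA replication and mitosis lists were complete, beside 59.5% of all nuclear protein coding symbols as members. All 32 DNA replication genes took 0.751%, 0.738% and 0.739% of the counts, with a median ratio of the highest to the lowest sample of 1.12, against 1.20 over the 4411 genes with a mean of 50 CPM or more. RRM1, a ribonucleotide reductase subunit, had 12172, 12062 and 11281 counts (1011 ± 46.0 CPM), and the replicative helicase subunits MCM3 and MCM7 lay at 695 ± 20.02 and 636 ± 18.5 CPM. All 25 mitosis genes took 0.431%, 0.427% and 0.445%, with a median ratio of 1.22. MKI67, a proliferation marker, had 6246, 7147 and 7822 counts (604 ± 65.0 CPM), TOP2A lay at 438 ± 78.2 CPM and CENPF at 427 ± 92.9 CPM. Of 18 G1 cyclins, kinases and inhibitors 17 were members, with a median ratio of 1.32, and CCND2 had no count. CCND3 had 5372, 6321 and 2753 counts (412 ± 159 CPM), CDK4 lay at 222 ± 34.0 CPM and CDK2 at 164 ± 7.50 CPM. EGFR led the 16 growth factor receptors that were members of 18, with 7624, 9843 and 11195 counts (816 ± 151 CPM), before MET at 433 ± 19.3 CPM and AXL at 212 ± 22.2 CPM. KIT had 0, 1 and 0 counts.

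Protein quality control genes were abundant and lower in Control-3. The 29 chaperones, which fold or refold proteins, took 2.79%, 2.52% and 1.91% of the counts, and all 29 were lowest in Control-3, beside 40.2% of all members. HSP90AB1 had 50348, 46688 and 34681 counts, HSPA8 had 39215, 32417 and 23336 and HSP90AA1 had 25551, 23792 and 15514. The 14 core subunits of the proteasome took 0.391%, 0.355% and 0.281%, and each was highest in Control-1 and lowest in Control-3. PSMB4 led them with 6054, 5233 and 4144 counts (440 ± 83.7 CPM). Tubulins took 0.990%, 0.892% and 0.658%, with TUBA1B at 32932, 28254 and 18479 counts. Of 31 actin cytoskeleton members, 26 were lowest in Control-3.

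Upstream stretches of 2 chaperone genes are shown with a pair of the units that heat shock factors are known to bind. The pattern GAANNTTC, which reads the same on both strands, was searched in RefSeq promoter windows of 300 bases (250 before and 50 after the start, GRCh38.p14). It was found in the windows of 12 of 27 chaperone genes, among them HSPA8, HSP90AB1, HSP90AA1, HSPD1 and DNAJA1, and in 6.77% of all 35116 windows (8.21% of the 27305 genes with a window). The stretches lie at chr11:123062137-123062231 (HSPA8, minus strand) and chr6:44247791-44247890 (HSP90AB1, plus strand), with the match in capitals, and are read 5′ to 3′ on the gene's strand upstream of the RefSeq start. A match describes the letters and was not tested as a binding site.
HSPA8: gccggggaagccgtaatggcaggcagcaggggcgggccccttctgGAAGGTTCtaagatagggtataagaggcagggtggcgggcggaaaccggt
HSP90AB1: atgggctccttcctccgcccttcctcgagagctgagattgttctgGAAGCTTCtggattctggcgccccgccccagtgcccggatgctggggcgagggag

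Antioxidant genes and targets of NRF2, the factor that answers oxidative and electrophilic stress, were members for 26 of 27 and took 1.36%, 1.55% and 1.04% of the counts. FTL had 36347, 41275 and 24719 counts and FTH1, the ferritin heavy chain, 30782, 32787 and 19773. PRDX1, a peroxidase, had 13767, 13935 and 10025 (1075 ± 193 CPM). Of the 26, 19 were lowest in Control-3, beside 40.2% of all members. GPX2, a glutathione peroxidase of the gut and liver, had 1, 1 and 0 counts. The core of the antioxidant response element, TGACNNNGC on either strand, was found in 5 of the 19 genes of the list that had a window (GCLM, GPX2, GSTP1, KEAP1 and TXNRD1) and in 13.3% of all windows (16.1% of genes with a window), and the stretch of GCLM, a subunit of the enzyme that starts glutathione synthesis, is shown (chr1:93909431-93909509, minus strand).
GCLM: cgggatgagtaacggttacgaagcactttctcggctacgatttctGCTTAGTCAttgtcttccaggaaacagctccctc

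Lipid synthesis genes were all members, beside 59.5% of all nuclear protein coding symbols. The 20 cholesterol synthesis genes took 0.237%, 0.236% and 0.196% of the counts and 18 were lowest in Control-3, beside 40.2% of all members. FDPS, which makes farnesyl diphosphate, lay at 305 ± 13.8 CPM and FDFT1, which makes squalene, at 257 ± 37.2 CPM. The 12 genes of fatty acid synthesis took 0.274%, 0.302% and 0.373%. ACLY, which makes cytosolic acetyl-CoA, was steady at 10393, 10595 and 9923 counts (880 ± 33.0 CPM). FASN (fatty acid synthase) had 6232, 7475 and 9926 (672 ± 157 CPM) and SCD, the stearoyl-CoA desaturase, 5386, 6507 and 11578 (667 ± 278 CPM), both highest in Control-3. The 20 lysosomal genes took 0.375%, 0.394% and 0.405%, led by PSAP at 924 ± 56.2 CPM. The 20 integrin and laminin members of 23 were led by LAMC1 at 533 ± 31.0 CPM and ITGB5 at 511 ± 51.9 CPM, and the 15 annexin and S100 members of 18 by ANXA2 at 666 ± 140 CPM. Of 10 metallothioneins 4 were members, and MT2A had 1284, 1268 and 2835 counts.

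Genes of class I antigen presentation were members and those of class II were not. B2M, the class I light chain, had 3023, 2602 and 3173 counts (250 ± 24.7 CPM). CIITA and HLA-DRA had no count and CD74 had 0, 1 and 0. All 9 members of 14 were highest in Control-3, beside 40.0% of all members of the rule. NEAT1 and MALAT1, nuclear long noncoding RNAs, had 12892, 17612 and 25723 counts and 5007, 6385 and 8613 counts, also highest there. Their list as a whole was divided: of its 11 members 5 were highest in Control-3, 4 in Control-1 and 2 in Control-2.

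The 3 samples agreed within a biological coefficient of variation of 16.05%, the common value of edgeR after counting error is set aside. Values of single genes are edgeR's estimates, drawn toward a trend over genes of like level, and are not the raw spread of each gene. ACTB, with 51831, 52481 and 51218 counts, was given 12.4%. The median of these gene values fell with level, from 20.1% at 1 to 3 CPM to 12.2% at 100 to 300 CPM, and lay at 14.1% above 1000 CPM. The median counting error fell from 21.2% to 2.38% over the same range and was the smaller of the pair from 3 CPM upwards. Without Control-3 the common value was 9.81%. The correlation of log2 CPM over the 14247 genes was 0.990 between Control-1 and Control-2, 0.975 between Control-1 and Control-3 and 0.983 between Control-2 and Control-3. It is a correlation across genes that share a library. The chi-square per degree of freedom of the counts was 8.37, 36.4 and 20.8 for the same pairs, where counting noise alone would give about 1. The pairs therefore differed by more than counting noise. Whether the excess was biological or technical was not tested.

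**Figure D3:**
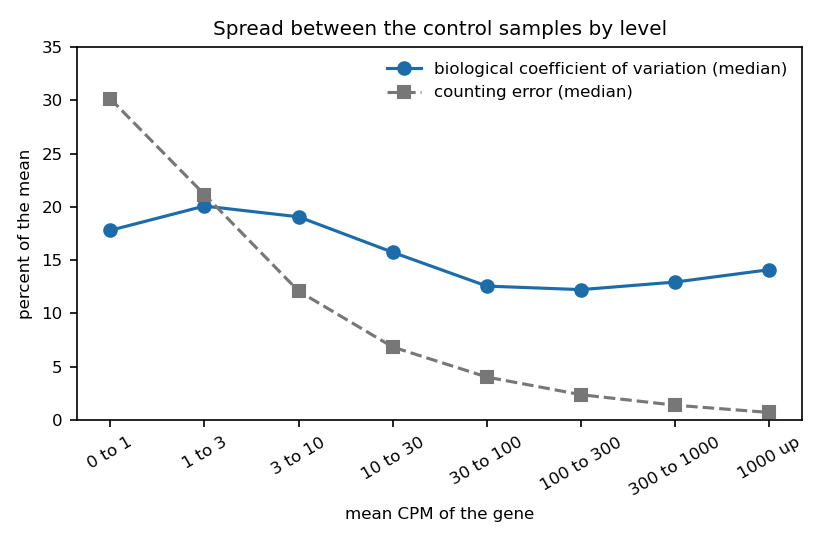
Median biological coefficient of variation (circles) and median counting error (squares), both in percent of the mean, of member genes grouped by mean CPM. The variation of each gene is edgeR's estimate, drawn toward a trend over genes, and not its raw spread. The 2 curves meet at 1 to 3 CPM, and above 100 CPM the variation stays between 12.2% and 14.1% while counting error drops to 0.716%.

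Among the 4411 members with a mean of 50 CPM or more, 2722 (61.7%) stayed within 1.25-fold between the highest and the lowest sample and 69 (1.56%) exceeded 2-fold. Control-3 was the highest or lowest sample in 64 of the 69 (92.8%) and in 3708 of all 4411 (84.1%). Between Control-1 and Control-2 alone, 9 of the 4411 genes exceeded 2-fold, against 56 between Control-1 and Control-3 and 27 between Control-2 and Control-3. TAGLN led, with a ratio of 9.45 (304, 215 and 32.1 CPM), low in Control-3. ID3, an inhibitor of differentiation factors (3662, 3200 and 1296 counts), SLC7A11, the cystine importer (2144, 2364 and 827) and HSPB8, a small heat shock protein (934, 900 and 341), were also low there. OASL, an interferon-induced gene, was high in Control-3 with 586, 394 and 2042 counts. Its relatives were higher there too, with 203, 121 and 329 counts for OAS1 and 491, 418 and 821 for OAS3. C1QTNF6 (507, 976 and 2288 counts), the crosslinking enzyme TGM2 (997, 701 and 2438), TXNIP, an inhibitor of thioredoxin (387, 483 and 1254), and SREBF1, the factor that drives lipid synthesis (1132, 1794 and 3082), were highest in Control-3. Without Control-3 the mean fell from 85.8 to 42.0 CPM for OASL, from 107 to 63.5 CPM for C1QTNF6, from 118 to 72.7 CPM for TGM2 and from 60.4 to 37.3 CPM for TXNIP. The cell cycle inhibitor CDKN1A had 716, 1556 and 1939 counts and ALDH3A1, an aldehyde dehydrogenase, 251, 605 and 1011, so in these Control-1 lay below the other samples. TNFAIP2, MAPK4, HR and DHRS3 had the same order, at ratios of 2.74 to 2.99. RNA5-8SP6, a copy of 5.8S ribosomal RNA, had 2979, 645 and 2628 counts, low in Control-2, as was RNA18SP2, with 6689, 2654 and 5276.

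**Figure D4:**
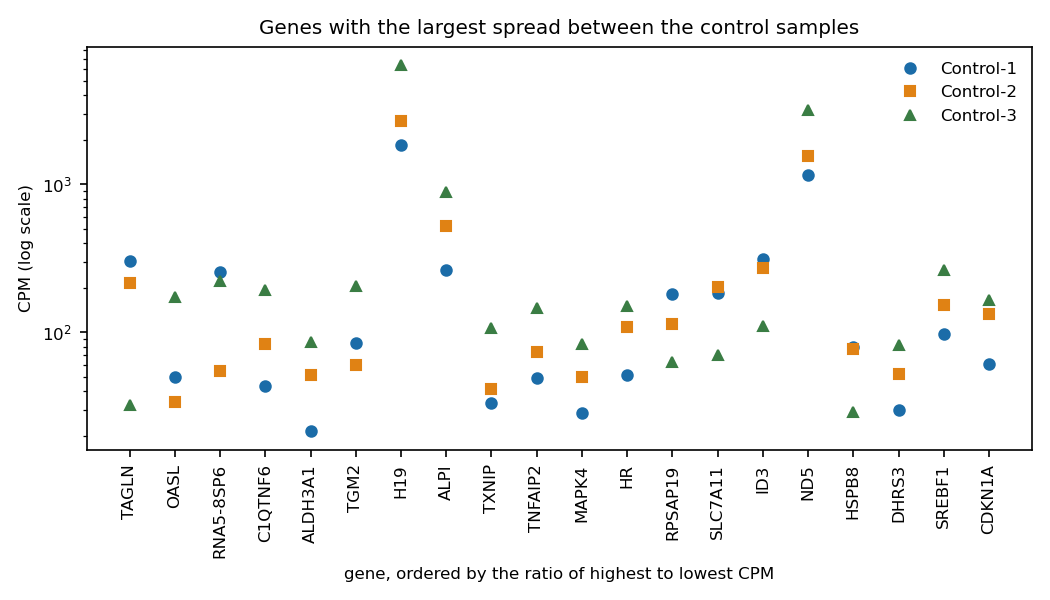
CPM on a log scale of the 20 genes with the largest ratio of highest to lowest sample among members with a mean of 50 CPM or more, 1 point per control sample. TAGLN, RPSAP19, SLC7A11, ID3 and HSPB8 are lowest in Control-3 (triangles), and 14 of the others are highest there.

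Gene length moved with these differences. Over 13072 members with a length, the Spearman correlation of exon length with log2 of the CPM in a sample over the mean of the others was -0.285 for Control-1, 0.011 for Control-2 and 0.253 for Control-3, so longer genes were relatively lower in Control-1 and higher in Control-3. With GC content the values were -0.075, -0.037 and 0.081. The short proteasome genes (median length 1452 bases) and ribosomal protein genes (1433 bases) were low in Control-3 and the long growth factor receptors (6090 bases) were high, with median log2 differences from the other samples of -0.43, -0.16 and 0.21. The mitochondrially encoded genes are short (954 bases) and were high in Control-3, at 0.39, and the chaperones (2605 bases) were low, at -0.42, while the median over all members was near 0. The part of length, of mitochondrial RNA and of RNA quality in these differences was not tested.

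**Figure D5:**
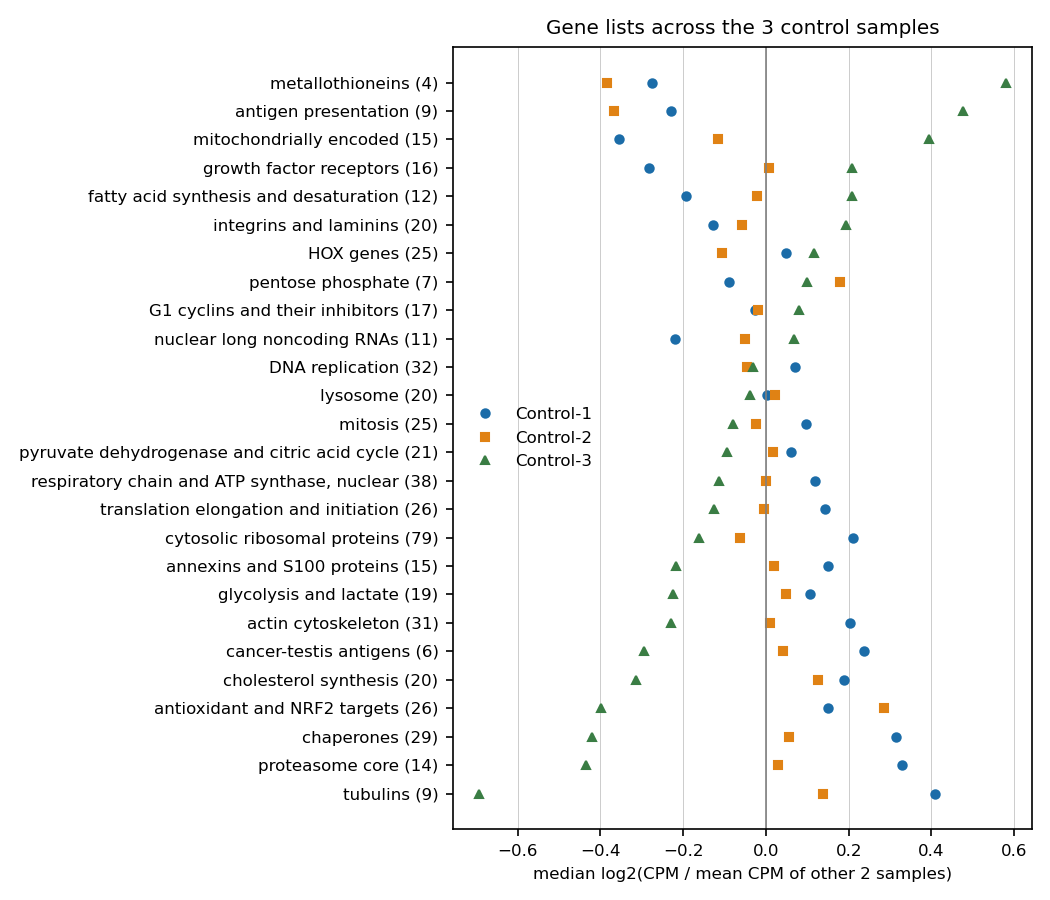
Median over the members of each pathway list (number of members in brackets) of log2 of the CPM in a sample over the mean CPM of the other 2 samples, 1 point per control sample. Tubulins, proteasome, chaperone and antioxidant lists lie lowest in Control-3, at -0.69 to -0.40, and metallothionein, antigen presentation and mitochondrial lists highest, at 0.39 to 0.58. Of the 4 metallothionein members, 2 were highest in Control-3 and 2 in Control-1.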

How the data were processed

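Total RNA was sequenced single-end on an Ion Proton instrument. By the methods of the study, reads were checked with FastQC and mapped with MapSplice, and the submitters' processing notes name HTSeq 0.6.1 and hg19 (GRCh37). The authors deposited counts, whole numbers of reads per gene symbol, without normalization; the treatment of multiply mapping reads and of strand was not given in the sources used here. The 3 control columns were used and the 3 treated columns were not. Genes with 10 or more counts in each control sample were kept. CPM values were computed with TMM factors from edgeR 4.0.16 in R 4.3.3, and the biological coefficient of variation with its dispersion estimates and an intercept-only design. On simulated counts with variations of 5, 10 and 20%, 5.03, 9.96 and 19.9% were recovered, over 14093, 14073 and 13996 genes. The simulation gave all genes the same variation and had no sample that stood apart. It therefore checks the estimator and not the value found for these samples. Levels per kilobase used GENCODE 29 exon lengths, the union of all exons of a gene, found for 13072 of 14247 members. Promoter windows came from RefSeq (GRCh38.p14) and were used for their letters only.

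No groups were compared and no p-value was computed. The members and the 48 gene lists were chosen with earlier results of these data known, and the motifs were chosen after the levels were seen. Genes were named by rule: the 30 members with the highest CPM, the 20 highest per kilobase, the 3 leading members of each list, marker genes at or under 3 counts, the 20 members above 50 CPM with the largest ratio between samples, and 3 genes on each side of the count minimum. Genes outside it (the alkaline phosphatases, the OAS genes, copies of ribosomal RNA, further list members and pseudogene parents) were chosen after their values were seen. Alternatives were other scaling factors (library totals, upper quartile, DESeq2 1.42.0), other minimums and denominators, and each sample left out. Some single genes are not reported here. Figures were drawn with matplotlib 3.10.9.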

Additional observations from a re-analysis of the deposited data

How the results depend on the processing

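No paired analysis was possible because only the control group was used. The number of members ranged from 13030 (20 counts in each sample) to 18539 (1 count) and from 14423 to 14526 with a sample left out. Hepatocyte markers that were members numbered 20, and 34 at a minimum of 1 count, and 20 to 21 with a sample left out. Genes over 2-fold between samples numbered 69 at a mean of 50 CPM, 275 of 9821 genes at 10 CPM, 41 of 2178 at 100 CPM, and 8 to 58 with a sample left out, the fewest without Control-3 and 26 without Control-1. The stricter settings admit fewer genes or samples. The common coefficient of variation was 16.03% to 16.8% under the other scalings and filters, 9.56% as the median of DESeq2's gene estimates, and 9.81% to 20.8% with a sample left out, the lowest without Control-3; the cause was not tested. Mean CPM of the 149 named genes moved by at most 0.623% with library totals. Leaving out Control-3 moved 6 of these means by over 1.5 times, those of OASL, C1QTNF6, TXNIP, TGM2, H19 and PPARG, and leaving out Control-1 or Control-2 moved none by as much. Without the mitochondrially encoded genes in the totals, an alternative added after the data were seen, ribosomal proteins took 4.48% and glycolysis 2.70%. At the minimum of 10 counts the counting error of a sample is 31.6%.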
